A study of Sus scrofa with 92 samples.

Results

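Subcutaneous adipose tissue was set against longissimus dorsi, a long muscle along the back, in 9 breeds of pig (Sus scrofa). The libraries were chosen by the tissue and breed in their labels: every breed with both tissues entered, which gave 9 adipose and 9 longissimus dorsi libraries, 18 of the 92 libraries of the series. Each breed supplied 1 library of each tissue, so the breeds are the replicates and every difference was taken within a breed. The 4 Chinese breeds were Bamei, Jinhua, Meishan and Rongchang, and the 5 Western breeds were Piétrain, Large White, Landrace, Hampshire and Berkshire. The pigs were 60 days old, and the labels name no treatment and no genotype other than the breed. Whether 1 animal of a breed gave both tissues, and whether animals were pooled, is not in the labels, so the spread between breeds holds both breed and animal differences. Gene expression is given as scaled FPKM, which is fragments per length of transcript and library total, scaled between the 18 libraries by median ratios. Differences are in log2 of scaled FPKM plus 1, adipose minus longissimus dorsi, with their standard error, and genes with an adjusted p below 0.05 in limma count as called.

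White adipose tissue stores triglyceride in the single large droplet of the adipocyte, which takes up or makes fatty acids after feeding and releases them in fasting, and it holds matrix, vessels, immune cells and adipocyte progenitors beside the fat cells. Longissimus dorsi of the pig is a mostly fast, glycolytic muscle: its fibres contract through the sarcomere, release and recapture calcium in the sarcoplasmic reticulum, and draw ATP from glycogen, glycolysis, creatine phosphate and mitochondria. Both tissues form from mesoderm, and fat cells also lie between the fibres of a muscle.

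Total FPKM per library ranged from 550285 to 942855, and 10216 to 12889 genes reached 1 FPKM. The files used give no read counts, so the depth behind a low value is unknown; relative depth, estimated from the steps of low values, ran from 0.818 to 1.19 among the 18 libraries. A value of exactly 0 was found for 111 genes that elsewhere in the same tissue reached 100 FPKM or more, among them ACTA1 in 8 longissimus dorsi libraries and COL3A1 in 4 adipose libraries. For ACTA1 and COL3A1 such a 0 is read as a failed estimate, not as a level. For the other genes a 0 may be a failed estimate or an absence, which was not tested. Of 13441 genes tested, 5197 were higher in adipose (38.7%) and 4715 were lower (35.1%), together 73.7%. By a log2 difference over 1, 1533 genes were higher (11.4%) and 1917 lower (14.3%), together 25.7%. Of these 3450 genes 3266 had the same sign in 9 of 9 breeds and 2774 had no overlap between the 9 libraries of each tissue; over all genes tested, 13.9% lay higher and 18.2% lower in adipose with no overlap. The p-values measure the spread between these breeds only. The median difference of all genes was 0.04 with median-ratio scaling, 0.63 on FPKM as deposited and 0.07 after quantile normalization, and on deposited FPKM 82.4% of the calls were higher in adipose against 52.4% with scaling.

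Each library carried the markers of its labelled tissue. PLIN1, which coats the lipid droplet of fat cells and guards it from lipases, was at 299 to 535 scaled FPKM in adipose (median 385) and at 2.38 to 11.9 in longissimus dorsi (median 4.12). No adipose library came near a muscle library, and the difference was 6.09 ± 0.25 (adjusted p = 3.93e-09). POSTN, the matrix protein periostin, ranged from 266 to 697 in adipose (median 454) and from 6.48 to 52.01 in longissimus dorsi (median 26.1), a difference of 4.23 ± 0.30 (adjusted p = 2.12e-07). Its lowest muscle values were in Hampshire (6.48) and Piétrain (8.75) and its highest in Rongchang (52.01). MYL1, an essential light chain of fast muscle myosin, was at 6433 to 28106 in longissimus dorsi (median 17821). In adipose it was at 7.88 to 117 in 8 breeds and at 600.4 in Meishan, and the fitted difference was -8.69 ± 0.63 (adjusted p = 8.79e-07), or -9.20 without Meishan.

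**Figure D1:**
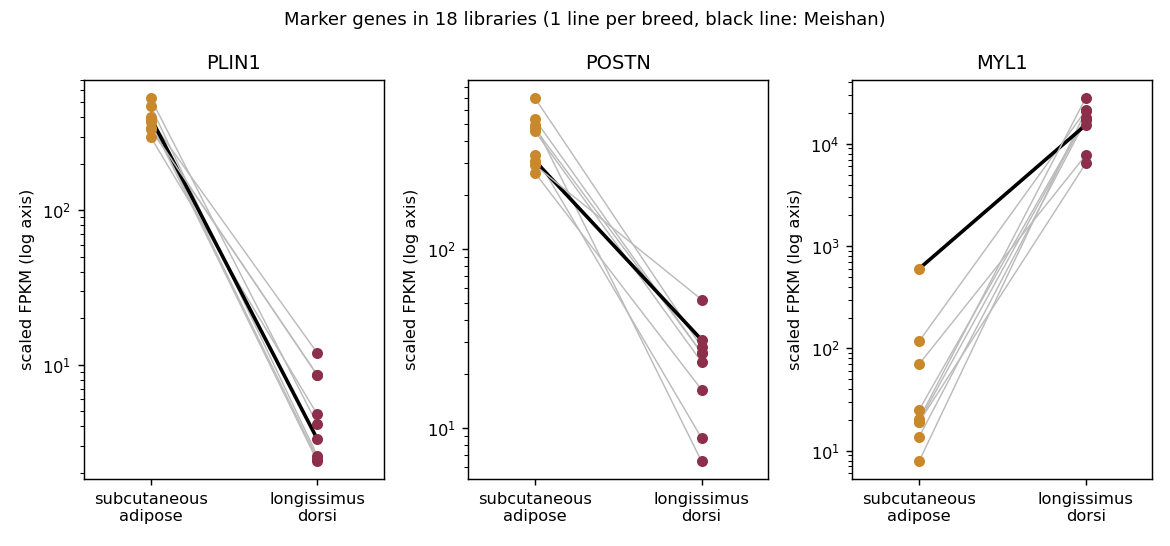
Scaled FPKM of PLIN1, POSTN and MYL1 (log axes) in the adipose and longissimus dorsi library of each breed, joined by a line. PLIN1 and POSTN are higher in adipose in all 9 breeds, and the Meishan adipose library (black line) has the highest MYL1 of the 9 adipose libraries, at 600.4.

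Muscle transcripts were present in every adipose library, at levels that differed between breeds. Over the 5 of 10 fast fibre markers that could be matched (MYL1, MYL11, TNNC2, ATP2A1 and MYBPC2), the Meishan adipose library stood at a median of 5.84% of its own longissimus dorsi, and single genes ran from 3.58% to 16.3%, the last for ATP2A1. Jinhua was at 0.827%, Landrace at 0.569%, Bamei at 0.294% and the other 5 breeds at 0.0385% to 0.153%. Slow fibre markers followed another order. Over the 4 of 6 matched (MYL3, TNNC1, TNNI1 and TNNT1), Landrace adipose was highest at 3.13% of its longissimus dorsi, while Meishan was at 0.485%, inside the 0.325% to 0.842% of the other 7 breeds. Meishan adipose was thus above the other libraries in fast fibre transcripts and within their range in slow fibre transcripts, and Landrace adipose was above the others in slow fibre transcripts. The part of these transcripts in the differences between the tissues was not tested beyond leaving libraries out. Of the 1917 genes lower in adipose by a log2 difference over 1, 1434 had a difference in Meishan above the median of the other breeds, and the median shift was 0.28. Leaving out Meishan, 13345 genes were tested, 5000 were higher (37.5%) and 4631 lower (34.7%), together 72.2%, with 1547 (11.6%) and 1967 (14.7%) past a log2 difference of 1, together 26.3%. In both fits 9538 of the 9912 called genes were called in the same direction, and none of the 42 gene lists gained or lost more than 1 called member in either direction.

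**Figure D2:**
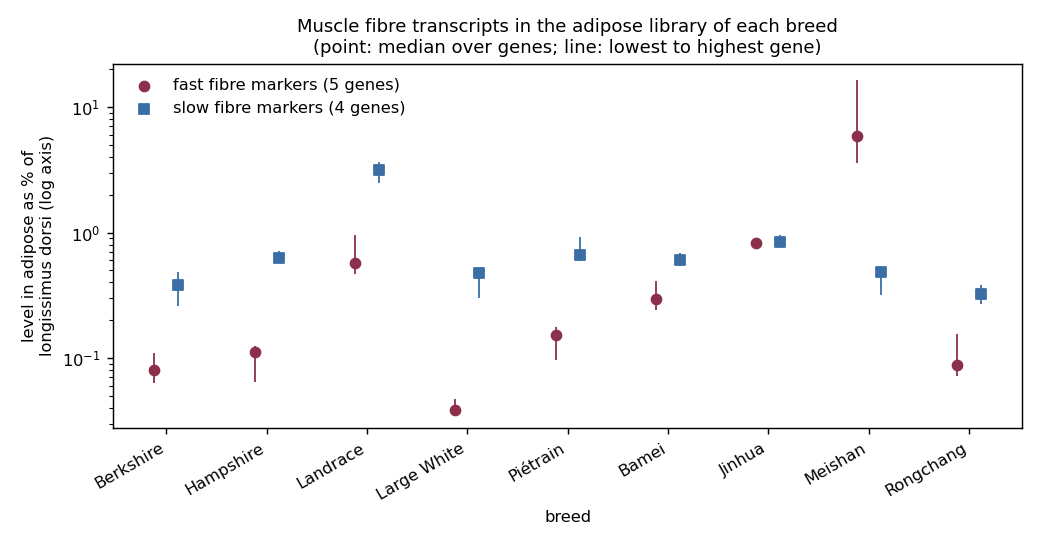
Level of matched fast fibre (circles) and slow fibre (squares) markers in the adipose library of each breed, as a percentage of longissimus dorsi of the same breed on a log axis; points are medians over genes and lines run from the lowest to the highest gene. Meishan has the highest fast fibre share (5.84%) and Landrace the highest slow fibre share (3.13%).

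In the other direction, fat cell transcripts were present in every muscle library. The sum of 6 matched adipocyte markers of 9 (PLIN1, PLIN4, CFD, CIDEC, ADIG and LIPE) was 157 to 348 scaled FPKM in longissimus dorsi against 1249 to 2287 in adipose, and among muscles it was highest in Jinhua and lowest in Large White. In muscle the largest share of the sum was CFD, complement factor D, an adipokine that macrophages also make, at 98.4 to 267 against 308 to 438 in adipose (1.09 ± 0.14, adjusted p = 3.16e-05). ADIG, a small protein of fat cells, was listed at 0 in the longissimus dorsi of Hampshire and Large White and reached 10.5 in Jinhua. How far fat cells within the muscle account for these levels was not tested, and in bulk tissue fewer cells of a type cannot be told apart from less RNA per cell.

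Genes of the fat cell stood far higher in adipose. Of 18 tested genes of adipocyte identity, 15 were higher and 1 lower, with a median difference of 3.93 against 0.04 for all genes. ADIG had the largest difference of all genes with a symbol, 6.65 ± 0.37 (adjusted p = 4.37e-08), with 232 to 496 scaled FPKM in adipose (median 349). PCK1, the cytosolic PEP carboxykinase that supplies glycerol phosphate for triglyceride in fat, was at 96.4 to 603 in adipose (median 369.5) and at 1.08 to 13.03 in muscle (median 2.12), a difference of 6.39 ± 0.30 (adjusted p = 1.02e-08). TRARG1, which helps move the glucose transporter GLUT4 to the surface, differed by 6.05 ± 0.32, and LGALS12, a galectin of lipid droplets, by 4.98 ± 0.25, each with no overlap between tissues. CIDEC, which fuses lipid droplets, ran from 35.4 in Hampshire to 473 in Landrace within adipose, a far wider range than PLIN1, and from 1.87 to 11.04 in muscle (5.22 ± 0.29, adjusted p = 3.54e-08). The regulators of the fat cell were high as well: PPARG differed by 3.94 ± 0.15 and CEBPA by 4.82 ± 0.21. GPD1, the glycerol phosphate dehydrogenase, was the member that was lower in adipose, at 149 to 278 against 206 to 953 in muscle (-1.31 ± 0.19, adjusted p = 6.71e-05), with overlapping libraries, and after quantile normalization its difference of -0.41 was no longer called.

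Genes known outside the lipid droplet were also among the largest positive differences. PPP1R1B, the phosphatase inhibitor DARPP-32 known from dopamine signalling, was at 138 to 202 scaled FPKM in adipose (median 187) and at 0.961 to 5.05 in muscle, a difference of 5.73 ± 0.16 (adjusted p = 6.87e-10). SDR16C5, a retinol dehydrogenase, differed by 5.19 ± 0.33. Subcutaneous adipose had the highest mean of the 9 tissues of the series for both genes and for 10 of the 12 genes with the largest positive difference; the exceptions were PCK1, highest in kidney, and APOE, highest in liver.

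Genes of fatty acid synthesis were mostly higher in adipose, and some of them differed widely between breeds. Of 21 tested genes of fatty acid and triglyceride synthesis 17 were higher and 2 lower (median 1.86). ELOVL5, an elongase of polyunsaturated fatty acids, was at 91.3 to 242 in adipose and 5.77 to 19.98 in muscle (3.74 ± 0.12, adjusted p = 9.73e-10), and AGPAT1, which adds the second acyl chain to glycerol phosphate, at 131 to 338 and 14.7 to 27.5 (3.53 ± 0.17). IDH1, a source of cytosolic NADPH, differed by 3.72 ± 0.16, and ACACA, which commits acetyl-CoA to fatty acid synthesis, by 2.05 ± 0.23. SCD, the stearoyl-CoA desaturase, was higher in adipose in 9 of 9 breeds (3.73 ± 0.58, adjusted p = 0.000224), yet it ran from 3.58 in Hampshire and 5.004 in Piétrain to 243 in Berkshire and 1382 in Large White. Its muscle values lay between 0.589 and 18.6, so the tissues overlapped. ACACA had the same extremes in adipose, 3.69 in Hampshire and 29.9 in Large White.

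In the list of lipolysis and fatty acid release 9 of 12 were higher and 1 was lower (median 2.18), beside 38.7% and 35.1% of all genes. LIPE, hormone-sensitive lipase, was at 214 to 519.7 scaled FPKM in adipose and 7.48 to 68.3 in muscle (3.93 ± 0.30, adjusted p = 4.36e-07). The receptors that start or restrain lipolysis were split: ADRB1, the beta-1 adrenergic receptor, was at 8.69 to 17.3 against 0.161 to 0.596 (3.43 ± 0.11), PTGER3, the prostaglandin E receptor EP3, differed by 3.13 ± 0.23, and ADORA1, the adenosine A1 receptor, was lower in adipose (-1.66 ± 0.26, adjusted p = 0.000144). Of 21 genes of cholesterol synthesis and uptake, 13 were higher and 4 lower (median 0.68). APOE, an apolipoprotein that carries cholesterol, stood apart with 1092 to 2516 in adipose and 31.97 to 98.5 in muscle (4.98 ± 0.20), while LSS and DHCR7, enzymes late in the pathway, differed by 2.28 ± 0.21 and 2.10 ± 0.13. Among the lower members were IDI1, FDFT1 and HMGCS1, enzymes of its early and middle steps. On deposited FPKM 1 gene of the list was lower and 18 were higher, beside 1991 and 9291 of all 13441 genes. Relative to the median of all genes, the list median was 0.64 as scaled here and 0.62 on deposited FPKM.

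Oxidation of fatty acids went the other way. Of 21 genes 16 were lower in adipose and 2 higher, with a median of -0.81, and on deposited FPKM 9 were lower, 4 were higher and the median stood at -0.63 relative to that of all genes. CPT1B, the muscle form of the enzyme that admits fatty acids to mitochondria, was at 2.65 to 7.11 in adipose and 60.2 to 165 in muscle (-4.37 ± 0.15, adjusted p = 1.28e-09). The higher members were CPT1A, the form of most other tissues, and the receptor PPARD. ACADM, the medium-chain dehydrogenase, differed by -2.30 ± 0.13 and ETFA, which passes electrons on from it, by -2.22 ± 0.12.

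Genes of the sarcomere and its calcium store were among the largest negative differences. All 10 tested fast fibre genes were lower in adipose (median -8.23), as were 8 of 8 slow fibre genes (-7.06), 18 of 19 genes of the Z-disc and sarcomere (-6.77) and 14 of 15 genes of excitation contraction coupling (-5.90). SLN, sarcolipin, the small inhibitor of the calcium pump, had the largest difference at -8.87 ± 0.61 (adjusted p = 5.56e-07), with 3166 to 10692 scaled FPKM in muscle and 2.33 to 224 in adipose (median 9.44). The pump itself, ATP2A1, differed by -7.86 ± 0.70 with Meishan and by -8.52 without it. MYL11, the regulatory light chain, was at a median of 31338 in muscle and 38.97 in adipose (-8.72 ± 0.61), and MYH8, the perinatal myosin heavy chain, was at 2676 to 8167 in the muscle of these young pigs (-8.38 ± 0.64), a level that is uncertain because the myosin heavy chain genes are near-identical copies of each other. Among slow fibre genes TNNC1, troponin C of slow and cardiac muscle, was at 2431 to 5181 in muscle and at 6.49 to 128 in adipose, highest in Landrace (-7.39 ± 0.28). Beside these lists stand the muscle transcripts of the Meishan and Landrace adipose libraries: without both breeds the median was -8.97 for fast fibre genes and -7.34 for slow fibre genes, and the counts of lower genes in both lists were the same. MYOZ1, which ties calcineurin to the Z-disc, was at 2339.6 to 5021 in muscle and 1.63 to 128 in adipose (-8.25 ± 0.55), and CASQ1, which holds calcium in the sarcoplasmic reticulum, at 672 to 3746 and 1.90 to 122 (-8.13 ± 0.59). A skeletal muscle had the highest mean of the 9 tissues for all 12 genes with the largest negative difference.

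Exceptions in these lists were few. ASPH, whose gene also encodes an aspartyl hydroxylase of many tissues, was higher in adipose (2.65 ± 0.10, adjusted p = 2.3e-09). ACTA1, skeletal muscle actin, was listed at 0 in 8 muscle libraries and at 36235 in Bamei, so its positive fitted difference (6.04, or 7.77 without Bamei and 5.39 without Meishan) is not read as a level. In adipose ACTA1 was listed at 46.9 to 2248, highest in Meishan and then in Landrace (825).

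Glycolysis and energy transfer divided between muscle forms and forms shared with other tissues. Of 32 genes of glycolysis and glycogen 21 were lower in adipose and 10 higher (median -3.64). PGAM2 was at 2816 to 9059 scaled FPKM in muscle and 2.49 to 172 in adipose (-8.70 ± 0.61, adjusted p = 6.85e-07), ENO3 differed by -8.67 ± 0.63 and PYGM, muscle glycogen phosphorylase, by -8.28 ± 0.58. GAPDH, often used as a reference gene, was at 27397 to 58227 in muscle and 229 to 1453 in adipose (-6.53 ± 0.30, adjusted p = 1.09e-08). ALDOC, the aldolase of brain, was the reverse, at 136 to 723 in adipose and 3.02 to 19.5 in muscle (5.25 ± 0.21, adjusted p = 3.93e-09). Creatine and adenylate energy transfer had 7 of 9 genes lower, led by CKMT2, the mitochondrial creatine kinase (-7.80 ± 0.36), while GATM, which makes the precursor of creatine, was higher (1.62 ± 0.16).

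For 17 of 33 pairs of related genes both forms were tested, and in 10 the form of other tissues was higher and the muscle form lower in adipose. The share of the second form in the summed scaled FPKM, a value per transcript length, did not overlap between tissues for 12 pairs. The pairs were chosen as a muscle form and a form of fat or other tissues, so the 10 and the 12 are a description. Over all genes 38.7% were higher and 35.1% lower in adipose, and no pair share was computed over all genes. PFKM stands in both phosphofructokinase pairs, and the pair of ACTB and ACTA1 holds ACTA1 values listed at 0 in muscle, which are not read as levels. Among the 10, the pair of ENO1 and ENO3 rests on a small ENO1 difference (0.31 ± 0.12, adjusted p = 0.0341 in limma). ENO1 lost its call without Hampshire, Large White, Bamei or Jinhua, without Landrace and Meishan together, and without the breed block. PLIN5, the perilipin of oxidative tissues, made up 0.558% to 2.22% of PLIN1 plus PLIN5 in adipose and 54.7% to 94.3% in muscle. CPT1B was 5.09% to 17.7% of CPT1A plus CPT1B in adipose and 76.2% to 85.5% in muscle. DMD, dystrophin, held 3.28% to 12.3% of its sum with UTRN, utrophin, in adipose and 66.2% to 87.2% in muscle: both genes differed, DMD lower (-2.75 ± 0.12) and UTRN higher (1.70 ± 0.08). The glycolytic pairs had wider ranges in adipose. PYGM was a median of 19.96% of PYGL plus PYGM in adipose and 99.8% in muscle, and PGAM2 a median of 13.7% and 99.6%. Meishan adipose gave the highest share of these muscle forms, 81.8% for PYGM, 80.1% for PGAM2 and 85.4% for ENO3, and without it the highest were 42.6%, 41.6% and 53.3%. SLC25A4, the muscle ATP/ADP carrier, was 18.5% to 64.2% of its sum with SLC25A5 in adipose and 97.6% to 99.5% in muscle, and PPARGC1A was 4.66% to 19.4% of its sum with PPARGC1B in adipose and 60.5% to 99.1% in muscle. Not every pair moved apart: MEF2A and MEF2C, transcription factors of muscle and other tissues, were both lower in adipose (-1.24 ± 0.12 and -2.78 ± 0.22), and the share of HK2 in the hexokinases HK1 plus HK2 overlapped, at 8.97% to 38.6% in adipose and 15.04% to 69.9% in muscle. Glycogen synthase was split too: GYS1, the muscle form, was lower in adipose (-2.85 ± 0.12) and GYS2, the liver form, was higher (2.64 ± 0.20), with 2.57 to 12.6 scaled FPKM in adipose and 0.0410 to 0.482 in muscle.

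**Figure D3:**
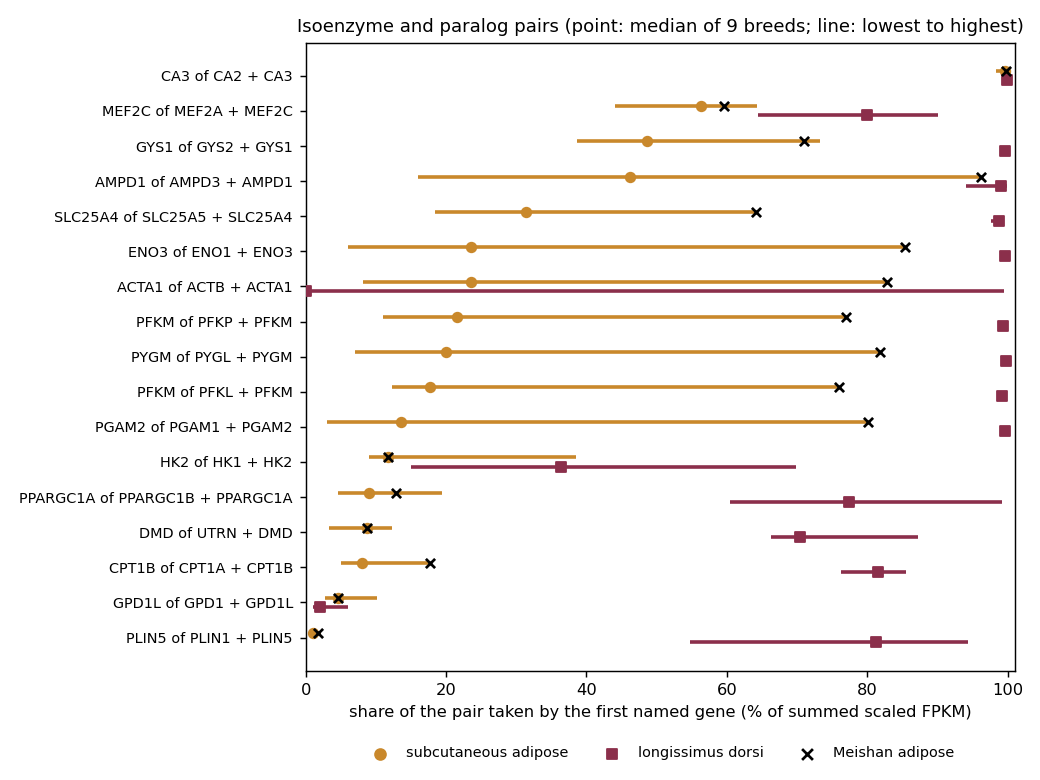
Share of the muscle or second form in the summed scaled FPKM of each of 17 tested pairs, in 9 adipose (circles) and 9 longissimus dorsi (squares) libraries; points are medians, lines run from the lowest to the highest breed and crosses mark Meishan adipose. PLIN5 takes 1.09% in adipose and 81.2% in muscle at the median, and among adipose libraries PYGM, PGAM2 and ENO3 have their highest share in Meishan. The share of ACTA1 in longissimus dorsi rests mostly on values listed at 0, which are not read as levels.

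Mitochondrial energy genes were lower in adipose with 1 exception in the citric acid cycle. Of 20 genes of the cycle and its entry points 19 were lower (median -1.92), led by IDH2 (-4.00 ± 0.18) and MDH2 (-3.42 ± 0.14). PC, pyruvate carboxylase, which refills the cycle and feeds citrate to fatty acid synthesis, was at 408 to 847 scaled FPKM in adipose (median 568.2) and 8.73 to 27.9 in muscle (median 14.7), a difference of 5.26 ± 0.17 (adjusted p = 1.2e-09). Of 32 nuclear genes of oxidative phosphorylation 31 were lower (median -2.43), for example ATP5MC1 of the ATP synthase (-4.06 ± 0.11) and CYCS, cytochrome c (-3.84 ± 0.17). Transcripts of the mitochondrial genome had 10 of 13 lower (median -1.48). The other 3, ATP6, ATP8 and COX3, were lower in 8 of 9 breeds and listed at 0 in longissimus dorsi of Landrace, and without Landrace and Meishan 13 of 13 were lower. After quantile normalization 2 were lower, 1 was higher and the median was 0.09, so the counts of calls rest on the scaling. PPARGC1A, the coactivator that drives mitochondrial genes, was at 0.0573 to 0.262 in adipose and at 4.12 to 184 in muscle (-3.60 ± 0.52), where Berkshire (184) and Bamei (53.7) stood above the rest. ESRRA, its partner receptor, differed by -2.40 ± 0.18. The list of thermogenic genes had 5 higher and 5 lower of 10. The lower ones were CKMT2, PPARGC1A, ZIC1, FGF21 and UCP3, of which CKMT2, PPARGC1A and UCP3 are also known from muscle, and the higher ones GATM, UCP2, EBF2, BMP7 and TMEM26. The median of this list was -0.15 as scaled here and 0.39 on deposited FPKM, or -0.19 and -0.23 relative to the median of all genes.

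Genes of the extracellular matrix were higher in adipose almost throughout the lists tested. Of 34 fibrillar and interstitial matrix genes 31 were higher and none was lower (median 1.68), and on deposited FPKM and after quantile normalization the counts were 33 and 32. COL1A2, a chain of type I collagen, was at 435 to 2287 in adipose and 120.0 to 378 in muscle (2.32 ± 0.20, adjusted p = 1.29e-06), and its lowest adipose libraries were Jinhua and Piétrain. SPARC, a collagen-binding glycoprotein, was at 2000.4 to 5370.1 and 504 to 875 (2.27 ± 0.10), and THBS2 differed by 2.45 ± 0.21. COL3A1 was not called, being listed at 0 in 4 adipose libraries. POSTN, at 4.23, had the largest difference of the list. In basement membrane 10 of 11 genes were higher (median 0.85), with COL4A2 at 1.89 ± 0.08, and in matrix proteases 11 of 15 were higher and 1, ADAMTS8, was lower (median 1.60). MMP14, the membrane collagenase, was at 92.2 to 142 in adipose and 12.8 to 22.3 in muscle (2.70 ± 0.11, adjusted p = 3.93e-09). ADAMTS4, an aggrecanase, reached 66.5 in Piétrain adipose, and in Rongchang alone adipose (3.37) did not exceed muscle (3.42).

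Genes known from cells other than adipocytes and fibres differed between the tissues as well (over all genes 38.7% were higher and 35.1% lower). Genes of fibroblasts and adipocyte progenitors were higher in 13 of 15 cases (median 0.89). TWIST2 (3.16 ± 0.19) and EBF1 (1.98 ± 0.08), transcription factors of mesenchymal cells, led the list, followed by CLEC3B, tetranectin, at 357 to 788 against 101 to 213 (1.80 ± 0.11). PI16 and DPP4, both known from early progenitors, were lower (-1.34 and -0.66), and on deposited FPKM 1 member was lower. All 15 genes of satellite cells and the myogenic programme were lower (median -2.78): MYF6 was at 64.8 to 427 in muscle and 0.107 to 7.30 in adipose (-6.68 ± 0.32), and MYOD1 differed by -4.69 ± 0.33. Macrophage genes were higher in 15 of 15 cases (median 1.40), with CD14 at 18.7 to 36.5 against 4.21 to 12.2 (1.92 ± 0.16) and C1QA at 1.54 ± 0.18. Lymphocyte genes were higher in 11 of 15 cases by smaller steps (median 0.43), the largest for CD247, the zeta chain of the T cell receptor (2.38 ± 0.20). Endothelial genes were higher in 13 of 15 cases (median 0.52), led by LYVE1 of lymphatic vessels (1.52 ± 0.19) and KDR, a receptor of VEGF (1.25 ± 0.21). The 1 lower member was PROX1, a regulator of lymphatic endothelium (-0.48 ± 0.08, lower in 9 of 9 breeds). Smooth muscle genes were mixed, 7 higher and 4 lower of 14: ACTG2, enteric smooth muscle actin, was higher (1.93 ± 0.23), while CNN1, calponin (-2.24 ± 0.36), and ABCC9, a channel subunit of pericytes and of muscle (-1.16 ± 0.13), were lower.

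The markers of these other cells, summed over those that could be matched, moved with the tissue in part. For 3 of 5 macrophage markers the sum was 195 to 421 scaled FPKM in adipose (median 274) and 59.5 to 172 in muscle (median 96.6), and for 2 of 4 endothelial markers 127 to 234 and 50.7 to 116. For 2 of 4 lymphocyte markers (CD2 and MS4A1) it was 1.20 to 13.3 in adipose and 0.557 to 11.2 in muscle, with Meishan highest in both tissues. The ranges of red cell markers (2 of 2, 103 to 1213 against 138 to 2151) and of nerve markers (2 of 3, 7.41 to 75.3 against 21.8 to 101) overlapped. Among these, MS4A1 was listed at 0 in 1 muscle library, and no other of these markers was listed at 0. The part of these cells in the differences of other gene groups was not tested.

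**Figure D4:**
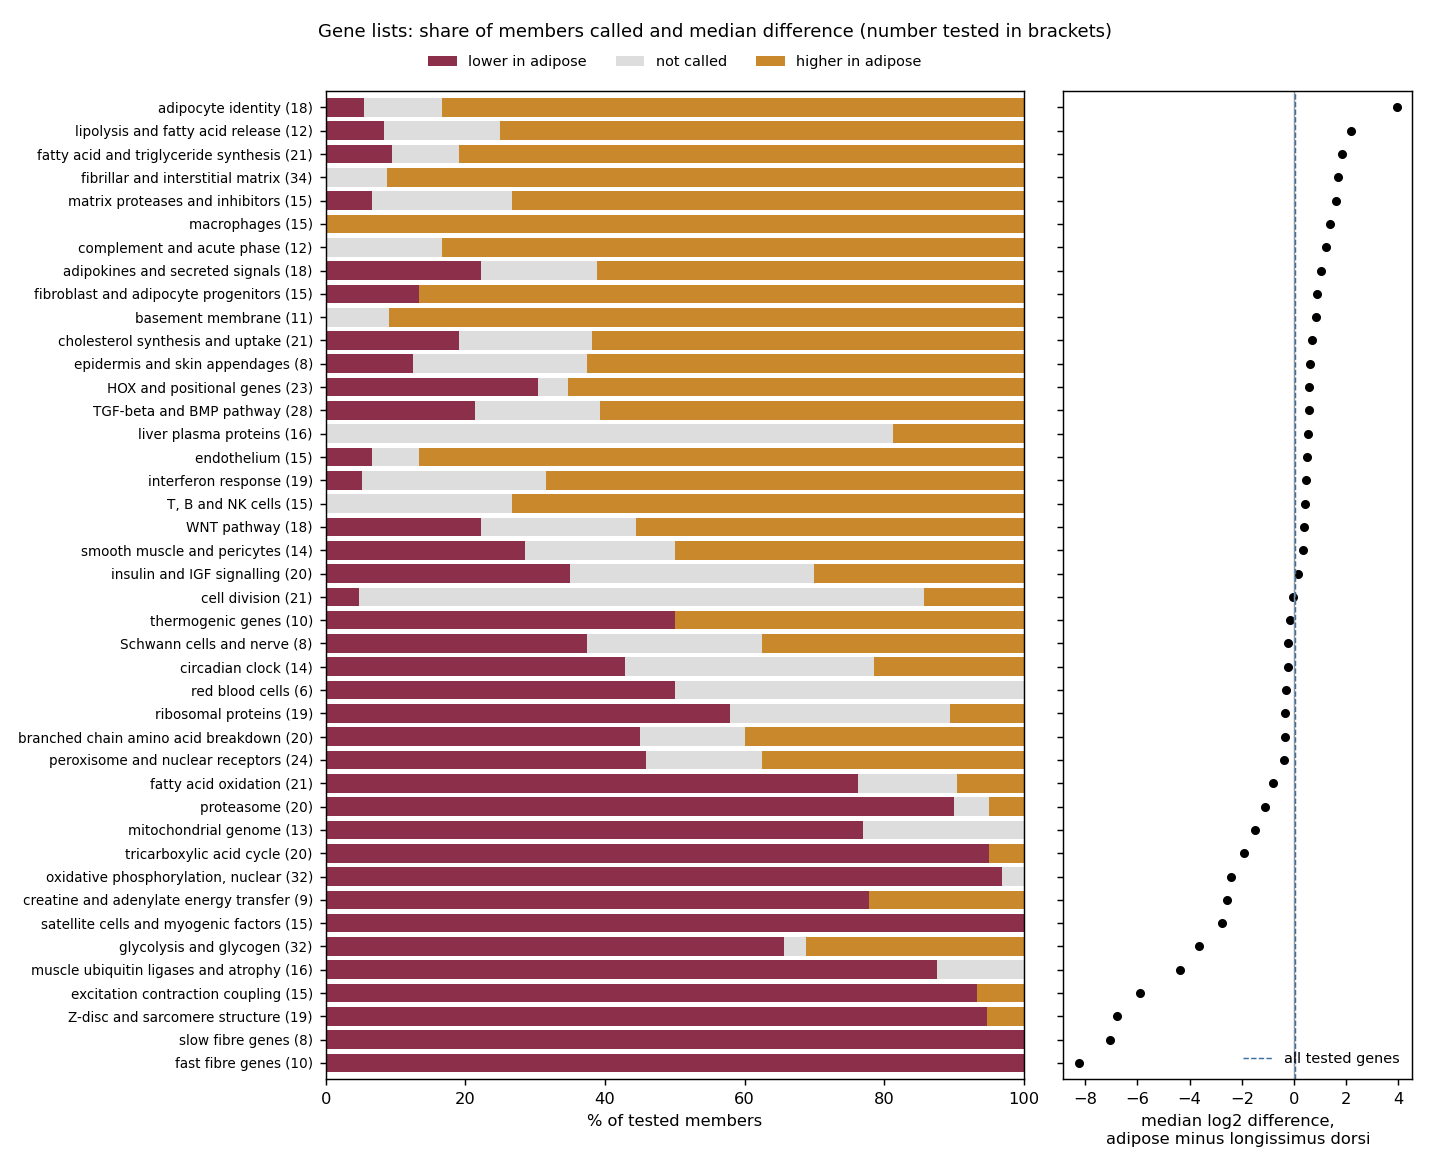
For each of 42 gene lists, the percentage of tested members that were lower (dark), not called (grey) or higher (light) in adipose, and the median log2 difference of its members beside that of all tested genes (dashed line). Adipocyte identity has the highest median (3.93) and fast fibre genes the lowest (-8.23).

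Secreted signals and their receptors differed member by member. Over all genes 38.7% were called higher and 35.1% lower, together 73.7%, and a count of calls near these shares is not a result about a list. Complement and acute phase genes were higher in 10 of 12 cases (median 1.24), with C4A at 88.1 to 198 scaled FPKM in adipose and 3.33 to 23.2 in muscle (3.48 ± 0.20). Of 18 adipokines and other secreted signals 11 were higher and 4 lower. SFRP5, an adipokine that binds WNT proteins, was at 22.4 to 164 against 4.19 to 6.82 (3.69 ± 0.24, adjusted p = 1.08e-07), while NAMPT, known as visfatin and as an enzyme of NAD synthesis, was lower in adipose, at 7.35 to 26.8 against 41.4 to 134 (-2.53 ± 0.17). MSTN, myostatin, the brake on muscle growth, was at 2.25 to 26.9 in muscle and listed at 0 in most adipose libraries. In the WNT pathway 10 of 18 genes were higher and 4 lower: the secreted antagonist SFRP1 was higher (4.19 ± 0.14) and the antagonist FRZB lower (-2.45 ± 0.23). In the TGF-beta and BMP pathway 17 of 28 were higher and 6 lower. ACVR1C, the receptor ALK7, was at 4.41 to 15.1 in adipose and at most 0.287 in muscle (2.84 ± 0.14), and CHRDL1, a BMP antagonist, differed by 2.61 ± 0.11. Of 20 genes of insulin and IGF signalling 6 were higher, among them IGFBP5 (2.14 ± 0.13) and AKT2 (1.80 ± 0.22), and 7 lower, among them TBC1D4, which gates GLUT4 traffic (-1.89 ± 0.18), and GLUT4 itself, SLC2A4 (-1.20 ± 0.22, 0.328 to 1.89 against 2.01 to 8.47). On deposited FPKM 13 members of this list were higher and 5 lower, and after quantile normalization 10 and 7. Of all 13441 genes, 9291 were higher and 1991 lower on deposited FPKM. Relative to the median of all genes, the list median was 0.12 as scaled here, 0.25 on deposited FPKM and 0.19 after quantile normalization.

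Genes that mark position along the body differed between the back muscle and the fat. Of 23 HOX and other positional genes 15 were higher in adipose and 7 lower (median 0.57). Over all genes 38.7% were higher and 35.1% lower, so these counts alone say little about the list. HOXC10, a HOX gene of the rear trunk, was at 2.48 to 13.6 scaled FPKM in muscle and at most 0.101 in adipose, a difference of -3.05 ± 0.21 (adjusted p = 1.67e-07), and 3 adipose libraries listed it at 0. HOXC6 (-1.27 ± 0.11), HOXD9 (-1.34 ± 0.14) and HOXA7 (-0.92 ± 0.14) were lower too, in 9 of 9 breeds each. All 7 tested genes of the HOXB cluster (HOXB2 to HOXB8) were higher in adipose, from 0.56 ± 0.13 for HOXB8 to 1.21 ± 0.08 for HOXB4 (adjusted p = 1.34e-07). SHOX2, a homeobox gene of limb patterning, was at 6.60 to 13.4 in adipose and 0.395 to 3.02 in muscle (1.84 ± 0.14), and TBX5, known from the forelimb and heart, was at 0.447 to 1.64 in adipose and at most 0.0358 in muscle (0.86 ± 0.10). LBX1, which guides migrating muscle precursors, was listed at 0 in 4 adipose libraries and at 0.980 to 7.29 in muscle (-1.58 ± 0.19). ZIC1, known from dorsal trunk tissue, was at 0.386 to 6.57 in adipose and 5.48 to 12.7 in muscle (-1.42 ± 0.24), with some overlap. In psoas major, a muscle under the spine, of the same 9 breeds, scaled together with these libraries, HOXC10 was at 7.45 to 19.98 and ZIC1 at 0.0748 to 0.729, so that the HOXC10 levels of both muscles overlapped, while every psoas value of ZIC1 lay under the 5.48 to 12.7 of longissimus dorsi.

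**Figure D5:**
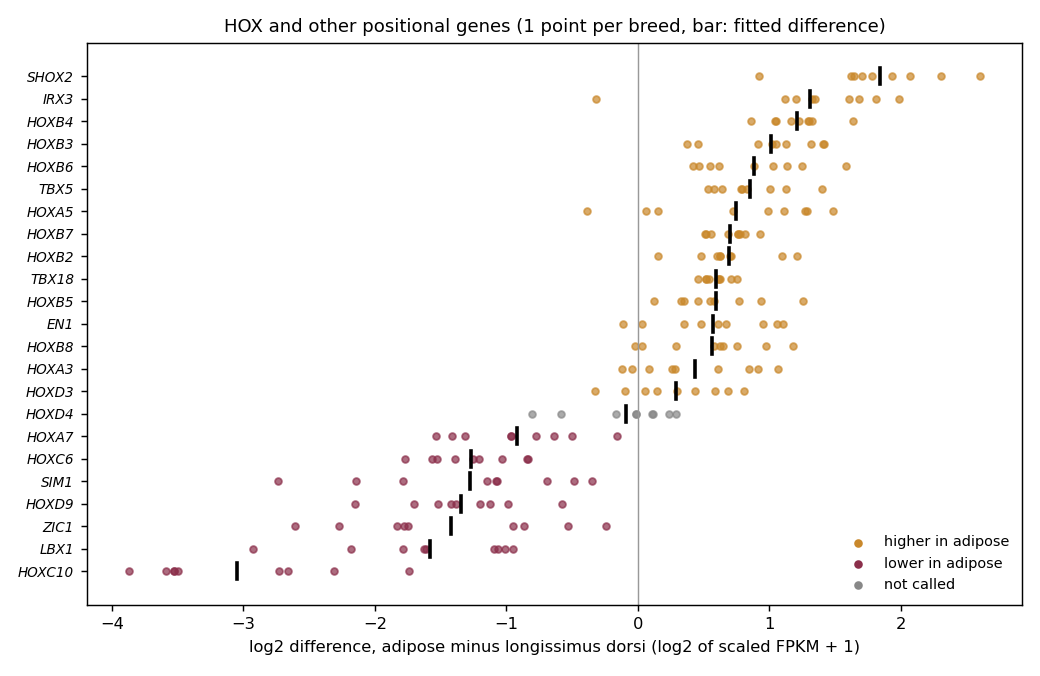
Log2 difference, adipose minus longissimus dorsi, of 23 HOX and other positional genes in each of 9 breeds (points), with the fitted difference as a bar. The fitted differences of HOXB2 to HOXB8 lie on the adipose side, with 1 point of HOXB8 (Berkshire, -0.03) below 0, and that of HOXC10, at -3.05, farthest on the muscle side.

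Lists of ubiquitin ligases and proteasome subunits were mostly lower in adipose as scaled here, while the direction of ribosomal proteins rested on the scaling. Over all genes 38.7% were higher and 35.1% lower. Of 16 muscle ubiquitin ligases and atrophy genes 14 were lower in adipose (median -4.37), with TRIM63, the atrophy ligase MuRF1, at 101 to 795 in muscle and 0.266 to 13.2 in adipose (-6.37 ± 0.32). Proteasome subunits were lower in 18 of 20 cases (median -1.10) with median-ratio scaling and in 9 and 14 on deposited FPKM and after quantile normalization. Their median relative to that of all genes was -1.14, -0.95 and -0.77, in that order. Ribosomal proteins took either direction with the scaling: 11 of 19 were lower and 2 higher as scaled here (median -0.33), but 1 lower and 15 higher on deposited FPKM and 0 lower and 17 higher after quantile normalization. Relative to that of all genes, the list median lay at -0.37, -0.14 and 0.60 under these scalings, in that order.

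Daily and hormonal regulators and the breakdown of amino acids gave mixed lists, beside 38.7% of all genes called higher and 35.1% called lower. Of 14 clock genes 3 were higher and 6 lower (median -0.25, and 0.36 on deposited FPKM). RORA, a nuclear receptor of the clock, was at 0.777 to 2.21 in adipose and 5.01 to 13.3 in muscle (-2.06 ± 0.13), while NFIL3, a repressor in the clock's output, was higher in adipose in 8 of 9 breeds (1.43 ± 0.21). The hour at which each animal was sampled is not given in the labels. Of 20 genes of branched chain amino acid breakdown 8 were higher and 9 lower (median -0.34, and 0.43 on deposited FPKM). BCKDK, the kinase that switches the pathway off, was lower in adipose, at 14.3 to 27.4 against 56.1 to 118 (-1.93 ± 0.14), and MCCC2, of leucine breakdown, was higher (1.36 ± 0.19). Of 24 genes of peroxisomes and nuclear receptors 9 were higher and 11 lower (median -0.38, and 0.37 on deposited FPKM), with PEX11A, which divides peroxisomes, at 10.03 to 29.99 in adipose and 1.54 to 4.30 in muscle (2.63 ± 0.16). Relative to the median of all genes, the clock median was -0.29 as scaled here and -0.26 on deposited FPKM. By the same measure branched chain breakdown was at -0.38 and -0.20, and peroxisomes and nuclear receptors at -0.42 and -0.25.

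As scaled here, the lists of liver plasma proteins, cell division and red cells had a smaller share of calls than the 73.7% of all genes. Of 16 liver plasma proteins 3 were higher and none lower, and 7 were higher without Piétrain. All 16 were higher on deposited FPKM, where 9291 of all 13441 genes were. RBP4, the retinol carrier that fat cells also secrete, was at 37.4 to 103 in adipose and 1.08 to 12.1 in muscle (3.96 ± 0.30), and APOA1, the main protein of high density lipoprotein, at 76.6 to 188 and 27.2 to 50.2 (1.43 ± 0.12). Of 21 cell division genes 3 were higher and 1 lower as scaled here, against 16 higher on deposited FPKM and 5 lower after quantile normalization. Relative to the median of all genes, the list median was -0.07, -0.18 and -0.21 under the 3 scalings, so the counts moved with the shift of all genes. Of 8 genes of Schwann cells and nerve 3 were higher, led by NGFR, the low affinity nerve growth factor receptor (1.89 ± 0.26), and 3 lower. Of 6 red cell genes 3 were lower; the largest differences were of ANK1 (-5.68 ± 0.37) and SPTB (-4.72 ± 0.20), membrane skeleton genes that muscle fibres also use. Of 8 genes of epidermis and skin appendages 5 were higher and 1 lower (median 0.61).

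Some genes differed widely between the breeds within a tissue. Keratins of the inner root sheath of hair, KRT72 and KRT25, were present in adipose of Berkshire, Large White, Bamei, Jinhua and Rongchang, at 22.6 to 129.6 scaled FPKM for KRT72. In Piétrain adipose KRT72 was at 0.0621, and in Hampshire, Landrace and Meishan it was listed at 0. Whether that 0 is an absence or a failed estimate was not tested. KRT72 was listed at 0 in all 9 muscle libraries, and the same 5 adipose libraries held KRT25 at 18.7 to 88.9. KRT25 was at 0.0341 to 0.0903 in Hampshire, Landrace and Piétrain adipose and listed at 0 in Meishan. KRT15, another keratin, was highest in Rongchang adipose (20.4). The sum of the skin markers KRT10, DSG3 and TP63 (3 of 5 markers) was 0.403 to 8.74 in adipose, highest in Rongchang as well. In muscle that sum was higher, at 3.74 to 21.4 (median 6.46 against 1.01 in adipose). TP63, an epidermal regulator, was higher in muscle, at 3.11 to 20.6 against 0.0416 to 1.08 in adipose (-2.56 ± 0.25). The part of skin or hair in the adipose libraries was not tested.

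Interferon response genes were higher in adipose in 13 of 19 cases and lower in 1 (median 0.47), beside 38.7% and 35.1% of all genes. USP18, which dampens interferon signalling, was at 11.6 to 109 in adipose and 1.28 to 41.2 in muscle (1.69 ± 0.14). MX1, an antiviral GTPase, was at 197 in Hampshire and 209 in Meishan adipose and at 52.99 and 114 in their muscle, against at most 47.5 in adipose and 33.1 in muscle of the other 7 breeds (0.77 ± 0.15, adjusted p = 0.000735). High and low breeds were thus paired across the tissues for MX1, and without the breed as a block its adjusted p in limma was 0.334.

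Western and Chinese breeds were compared on the difference between the tissues. In 13441 genes, 2 (0.0149%) had a difference that changed with origin by limma, and 786 had an unadjusted p below 0.05. Neither carries a symbol: ENSSSCG00000029400 was higher in adipose in all 5 Western breeds (mean difference 2.51) and about equal in the Chinese breeds (-0.07), and ENSSSCG00000027712 was lower in adipose in all 4 Chinese breeds (-2.14) and near 0 in the Western (-0.06); both had an adjusted p of 0.00967. No gene was called without Landrace or without Large White, where 769 and 683 had an unadjusted p below 0.05, and 1 was called without Bamei or without Meishan. Without breeds as blocks the tissue difference of ENSSSCG00000027712 itself was not called (adjusted p = 0.076). Of the 5 genes with a symbol and the smallest p, none was called. ATP6V0A4, a subunit of the proton pump known from kidney, was at 9.24 to 28.9 scaled FPKM in adipose of the 5 Western breeds and 5.71 in Jinhua but at 0.0742 or less in Bamei, Meishan and Rongchang (origin difference -2.77 ± 0.48, adjusted p = 0.31). Leaving out Jinhua, the Chinese breed that departs from the split, gave an adjusted p of 0.000516 in limma. Under every other setting it was 0.225 to 0.934, so the low value rests on dropping that breed. DCLK3, a kinase of the doublecortin family, was at 2.96 to 9.24 in Western and 0.263 to 0.784 in Chinese adipose (-1.95 ± 0.35, adjusted p = 0.31).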

How the data were processed

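Gene expression was measured by RNA sequencing of total RNA with an Illumina TruSeq RNA library kit, per the labels' protocols. The authors aligned reads with TopHat and computed FPKM values with Cufflinks 2.2.1 on Sscrofa10.2, per the submitters' processing notes; the gene annotation and options are not given in the sources used here. The 18 columns of the deposited FPKM table for 9 breeds with both tissues were read through their breed and tissue names. Of 25322 gene identifiers 11804 carried a symbol. FPKM was scaled between the 18 libraries by median ratios, 1 was added, log2 was taken, and genes with at least 1 FPKM in at least 3 libraries were tested. Tissue was fitted in limma 3.58.1 (R 4.3.3, trend and robust options, statmod 1.5.0) with breed as a block, with Benjamini-Hochberg adjustment over all genes tested, and the difference between Western and Chinese breeds as tissue by origin. The sharing of a breed was checked on deviations from the tissue means: the correlation of adipose with longissimus dorsi of the same breed was 0.193 to 0.323 in all 9 breeds, above the highest with another breed (0.00107 to 0.185) each time. The fit was run on simulated data in which few genes changed, unlike the 73.7% called here. That run had no scaling step, so it does not bear on the scaling or on so large a share of calls. The 42 gene lists (744 of 1074 symbols matched) and the members were chosen with earlier results of these data known. Text names PLIN1, POSTN and MYL1, the 12 called genes with the largest difference in each direction and 1 sign in 9 of 9 breeds, up to 4 called members of each list with the largest differences or the 2 with the smallest p, 33 pairs of related genes, the 6 called genes that varied most between breeds without Meishan, and 5 genes for origin. Some genes that this rule names are not reported here. List members named beside these, GAPDH and the HOX genes were chosen after their values were seen. Alternatives were a filter at 5 FPKM or none, deposited FPKM without scaling, quantile normalization, 0.1 as pseudocount, no breed block, plain limma, leaving out genes listed at 0 and leaving out each breed; leaving out Landrace and Meishan together was added after seeing the data. Reads were not analysed here, so FPKM carries no read depth and no counting interval is given.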

Additional observations from a re-analysis of the deposited data

Results flagged for a closer look

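Of 211 named genes 24 had 1 breed whose difference (log2, adipose minus longissimus dorsi) lay apart from the other 8 by Dixon's test at 95%, a test that chance meets in about 1 in 20 groups. In 7 of the 24 the breed was Meishan, each time with a smaller deficit in adipose. ATP2A1 was at -2.61 in Meishan and -10.25 to -6.67 elsewhere, and PFKM at -4.12 against -8.82 to -6.50. AK1, adenylate kinase, was at -4.19 against -7.51 to -6.07, SLC25A4 at -3.93 against -6.82 to -5.61, and SPTB at -3.06 against -5.36 to -4.43. ASB2 and KLHL31, ubiquitin ligase adaptors of muscle, were at -3.53 (others -7.82 to -5.90) and -3.80 (others -6.43 to -5.23). In Landrace the slow fibre genes MYL3 and TNNT1 stood apart, at -4.94 (others -8.21 to -6.74) and -5.01 (others -7.82 to -6.78).

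Hampshire stood apart in AGPAT1 (2.21, others 3.23 to 4.06), STAT2 of the interferon response (1.87, others 0.66 to 1.09), MCCC2 (2.83, others 0.53 to 1.59) and MEF2A (-2.12, others -1.37 to -0.87). Piétrain stood apart in ABCC9 (-2.15, others -1.38 to -0.72), TP63 (-4.37, others -2.90 to -1.51), IGFBP4, an IGF binding protein (3.17, others 1.22 to 2.19), and ADSS2, of adenine nucleotide synthesis (0.75, others -0.17 to 0.24). Jinhua did so in ALDOC (3.66, others 4.98 to 6.30), NKG7 of cytotoxic lymphocytes (2.66, others 0.87 to 1.76) and ACSL1, which activates fatty acids (-2.22, others -0.46 to 0.79). Rongchang did so in KRT15 (4.42, others 0 to 2.07), NR1D2 of the clock (-2.65, others -1.62 to -1.12) and FBP2, muscle fructose bisphosphatase (-5.97, others -4.54 to -3.06). Bamei, where ACTA1 is not listed at 0 in muscle, was at -7.95 for that gene against 5.58 to 11.13 in the other 8 breeds, where the muscle value is the 0 of a failed estimate.

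The difference between the tissues changed with the origin of the breed for ENSSSCG00000029400 (Chinese minus Western -2.58) and ENSSSCG00000027712 (-2.08), by the tissue by origin term in limma.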

How the results depend on the processing

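FPKM as deposited, without scaling, gave 9291 genes higher and 1991 lower (4025 and 975 past a log2 difference of 1), and without Meishan 9073 and 1932 (4085 and 988). A pseudocount of 0.1 gave 2517 higher past a log2 difference of 1, and 2528 without Meishan. The replicate block is the breed: without it 4766 genes were higher and 4514 lower, and 10 of the 211 named genes lost their call. The 2 origin calls became 1 with a pseudocount of 0.1 and 0 with a filter at 5 FPKM (558 at an unadjusted p below 0.05 in limma), 0 to 3 with 1 breed left out, and 0 without Landrace and Meishan (654 at an unadjusted p below 0.05). On deposited FPKM HBB (0.40), TPX2 (0.26), RPL14 (0.14), HK2 (0.24), GPD1L (0.66), CA2 (0.31) and ACSL1 (0.64) turned positive. The median of all genes was 0.63 there, with HBB, TPX2, RPL14, HK2 and CA2 under it and GPD1L and ACSL1 close to it. After quantile normalization HBB (0.47), RPLP1 (0.39), RPS16 (0.037), RPL27 (0.038), RPL14 (0.27), GPD1L (0.065) and ACSL1 (0.51) did. Leaving out 1 breed turned CA2 (0.078 without Hampshire, 0.063 without Jinhua) and ACSL1 (0.083 without Jinhua), neither of which was called. The cause was not tested. Leaving out Meishan alone changed the calls of 2 named genes, and leaving out Landrace and Meishan those of 6, among them ACTA1 (4.80, adjusted p = 0.0703). No other alternative turned the direction of a named gene. Low values limit what can be said of genes near 0 FPKM, since their depth in reads is unknown.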

Other observations

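ATF3 and OTUD1 varied widely between the breeds in longissimus dorsi. ATF3, a stress-induced transcription factor, was at 2.08 to 347 scaled FPKM in muscle (median 192) and 1.51 to 7.30 in adipose, and OTUD1, a deubiquitinase, at 5.55 to 431 and 4.35 to 7.35. Large White (6.36 and 6.62) and Jinhua (2.08 and 5.55) had the lowest muscle levels of both. A list of 22 genes of the early response was then chosen after these values were seen, so it is a description with no test. In it FOS ran from 3.65 to 302 in muscle, highest in Rongchang, and from 15.9 to 74.6 in adipose. ATF3 (-3.56 ± 0.87), OTUD1 (-3.29 ± 0.65), IER5 (-1.77 ± 0.36), PPP1R15A (-1.33 ± 0.22) and HSPA1L (-1.35 ± 0.28) were on the muscle side. KLF10 (-0.88 ± 0.12) and CCN1 (-0.85 ± 0.30) were there too. EGR1 (1.65 ± 0.36), KLF4 (1.50 ± 0.25), IER2 (1.07 ± 0.22) and CCN2 (0.72 ± 0.22) were on the adipose side. The other members, FOS among them, were not called, so the list did not move as 1.

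SNORA52, a small nucleolar RNA, was listed at 0 in all 9 muscle libraries and in 3 adipose libraries and reached 193 in another; FPKM of transcripts this short is imprecise.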
